A study of Mus musculus with 14 samples.

Results

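The clock output factors are 8 genes, Dbp, Tef, Hlf, Nfil3, Ciart, Bhlhe40, Bhlhe41 and Rora, taken by symbol from the 17552 genes of the deposited gene table. All 8 were found, each once, and all 8 had at least 100 counts in both groups together, as had 13291 genes of the table. They were measured in liver RNA of male Apoe-deficient C57BL/6 mice (C57BL/6J by the study's methods). The labels give an age of 8 weeks. The study's methods give a like age for the animals used, so it is read as that before feeding, not at collection. The mice lack apolipoprotein E and were all given a Western diet. The control group received that diet alone, and the other group the same diet with erythrodiol, a triterpene of the olive, at 10 mg/kg. RNA of 14 control and 15 erythrodiol mice was combined into pools of 2 or 3 mice, and each group gave 7 libraries. The control pool sizes in the study's methods do not add up to 14 mice. Feeding lasted 12 weeks by the study's methods and 8 weeks by the labels. Livers were taken after 4 hours of fasting, and the hour of collection was not given in the sources used here. No liver with functional Apoe and no second time of day was part of the comparison.

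The circadian clock of the liver is a loop of transcription factors in which BMAL1 and CLOCK activate genes with E-boxes, among them those of their own repressors, the PER and CRY proteins. Output factors are switched on or off by this loop and pass its rhythm to metabolic genes. DBP, TEF and HLF form the PAR bZIP family, activators that bind D-boxes, and NFIL3, also named E4BP4, represses through the same sites. CIART, also named CHRONO, and the bHLH proteins BHLHE40 (DEC1) and BHLHE41 (DEC2) repress transcription driven by BMAL1 and CLOCK. RORA is a nuclear receptor that activates genes with ROR elements, including the gene of BMAL1. In liver, the PAR bZIP factors are known for the rhythm of enzymes of drug and bile acid metabolism.

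Since E-boxes place several of these genes directly under the clock, the stretches around their annotated starts are shown first. RefSeq windows on GRCm38.p6, from 250 bases before to 50 bases after a start, were on hand for 7 of the 8 genes, with 2 windows for Tef. The exact E-box CACGTG lay in 4 of these 8 windows, those of the 3 genes Ciart, Tef and Bhlhe41. It lay in 7.15% of all 32851 windows of the same length. The 8 windows held 60.3% to 81.7% G and C, against a median of 52.7% over all windows, so the latter are not of like makeup. The Ciart window held 3 such E-boxes, a number reached by 0.0883% of all windows, and both Tef windows held 1. The 4 windows are printed below from 5′ to 3′ on the strand of the gene, with CACGTG in capitals. The Ciart window is chr3:95882179-95882478 on the minus strand, the Tef windows are chr15:81802423-81802722 and chr15:81811164-81811463 on the plus strand, and the Bhlhe41 window is chr6:145865371-145865670 on the minus strand.
Ciart: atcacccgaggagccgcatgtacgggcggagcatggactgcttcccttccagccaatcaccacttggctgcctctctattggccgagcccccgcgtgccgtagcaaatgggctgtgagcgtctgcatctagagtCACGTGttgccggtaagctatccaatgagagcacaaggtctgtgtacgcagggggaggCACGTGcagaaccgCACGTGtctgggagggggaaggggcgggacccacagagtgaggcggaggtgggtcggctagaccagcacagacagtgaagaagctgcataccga
Tef, first start: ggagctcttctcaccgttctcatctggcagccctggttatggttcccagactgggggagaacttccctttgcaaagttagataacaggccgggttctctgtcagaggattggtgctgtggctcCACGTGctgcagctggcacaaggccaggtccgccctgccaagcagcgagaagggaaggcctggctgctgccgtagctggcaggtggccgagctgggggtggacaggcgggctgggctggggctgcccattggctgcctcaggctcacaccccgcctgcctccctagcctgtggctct
Tef, second start: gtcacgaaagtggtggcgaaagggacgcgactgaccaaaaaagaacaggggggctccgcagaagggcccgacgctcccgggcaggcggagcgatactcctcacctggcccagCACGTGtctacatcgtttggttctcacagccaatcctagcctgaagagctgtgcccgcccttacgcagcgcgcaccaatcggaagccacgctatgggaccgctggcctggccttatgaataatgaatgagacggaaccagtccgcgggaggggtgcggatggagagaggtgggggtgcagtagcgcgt
Bhlhe41: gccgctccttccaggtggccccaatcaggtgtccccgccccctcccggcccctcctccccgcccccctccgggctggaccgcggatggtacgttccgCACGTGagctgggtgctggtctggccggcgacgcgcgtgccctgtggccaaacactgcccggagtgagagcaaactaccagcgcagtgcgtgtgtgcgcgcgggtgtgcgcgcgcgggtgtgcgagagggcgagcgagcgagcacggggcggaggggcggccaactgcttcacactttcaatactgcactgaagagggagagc

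In Ciart the matches began 116, 58 and 44 bases before the start, in Tef 127 and 138 bases before the first and the second start, and in Bhlhe41 153 bases before it. CACGTG reads the same on both strands, and no other motif searched overlapped it. The cyclic AMP element TGACGTCA, also the same on both strands, was found in the Hlf window, 9 bases before the start, and in 1.79% of all windows. Other starts and stretches outside the windows were not searched. The starts used for Ciart, Dbp, Nfil3 and Rora lie inside the gene bounds given below. The windows of Dbp, Nfil3 and Rora held none of the motifs searched. These were, on both strands and beside the former, the related CACGTT (4.68% of all windows), the D-boxes TTATGTAA (0.938%) and TTACGTAA (0.119%), and 2 forms of the ROR element (0.219% and 0.216%), and none of the latter 5 was found in a window of these genes.

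**Figure D1:**
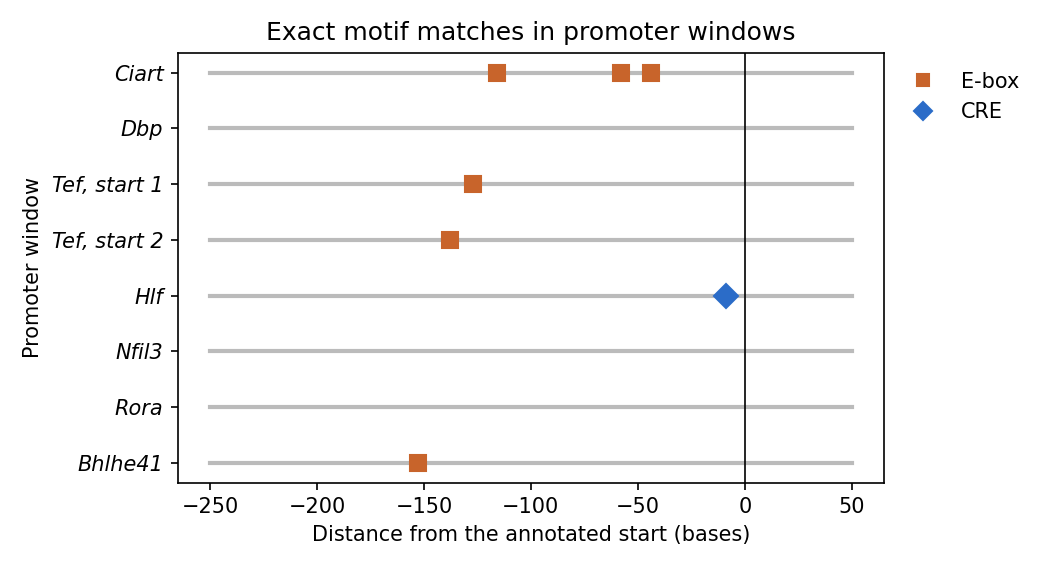
Exact matches to the E-box CACGTG (squares) and the cyclic AMP element (diamond) in the 8 promoter windows of 7 clock output genes, by distance in bases from the annotated start (vertical line), ordered by the ratio of erythrodiol to control. Ciart, with the highest ratio, has 3 E-boxes, and each Tef window and Bhlhe41, with the lowest ratio, have 1. Dbp, Hlf, Nfil3 and Rora, with ratios between these extremes, have none. A relation between E-boxes and ratios was not tested.

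Each group had a single expected count for a gene, the sum over its 7 libraries, so that no gene has a value per library and no gene a test. The sums were 122889032 counts in the control and 124686047 in the erythrodiol group. Levels are given as counts per 1000000 counts of the group (CPM), and between genes as CPM per kilobase of transcript. Libraries held from 34856340 to 55244294 clean reads in the control and from 47669656 to 48058606 in the erythrodiol group, and 1 control library contributed 9.12% and another 17.3% of the reads mapped to genes in their group, against 13.9% to 14.6% for erythrodiol libraries. The control library with the smallest contribution mapped 64.3% of its reads to genes, apart from the others at 74.4% or more, and it cannot be taken out of the sums. Apoe, disrupted in both groups, had 9403 and 8293 counts, which pooled counts cannot assign to an intact or a disrupted transcript. The study reported, by RT-PCR, no hepatic Apoe expression in its Apoe-deficient mice. Intervals given for genes are exact at 95%, and those for the change of one gene relative to another are normal approximations. All cover counting error only and leave out differences between mice and pools.

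All 8 factors had a ratio of erythrodiol to control above 1 when the groups were scaled by their total counts, and 71.2% of all genes did. Scaled by the median ratio of all genes or by the upper quartile, 7 stayed above 1 and Bhlhe41 had a log2 ratio of -0.00 and -0.02. Their median log2 ratio was 0.42, a 1.34-fold higher level, against 0.16 over all genes with at least 100 counts. Of the 8, only Ciart was past 1.5-fold, a limit that 5.69% of all genes passed, 2.55% upwards and 3.14% downwards. None was past 2-fold, as were 0.767% of all genes, 0.218% upwards and 0.549% downwards. For the other 7 genes the ratio lay between 1.12 and 1.42. The median ratio of genes of like length rose with that length, from a log2 ratio of 0.06 around Dbp and Ciart to 0.35 around Rora, so each factor was also set against the 500 genes nearest to it in transcript length. Relative to their median, 7 factors were higher and Bhlhe41 was lower, where 49.9% of all genes are higher, and Ciart was again the only factor past 1.5-fold, as were 4.55% of all genes, 1.02% upwards. The median of the 8 was then 0.23 on the log2 scale.

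**Figure D2:**
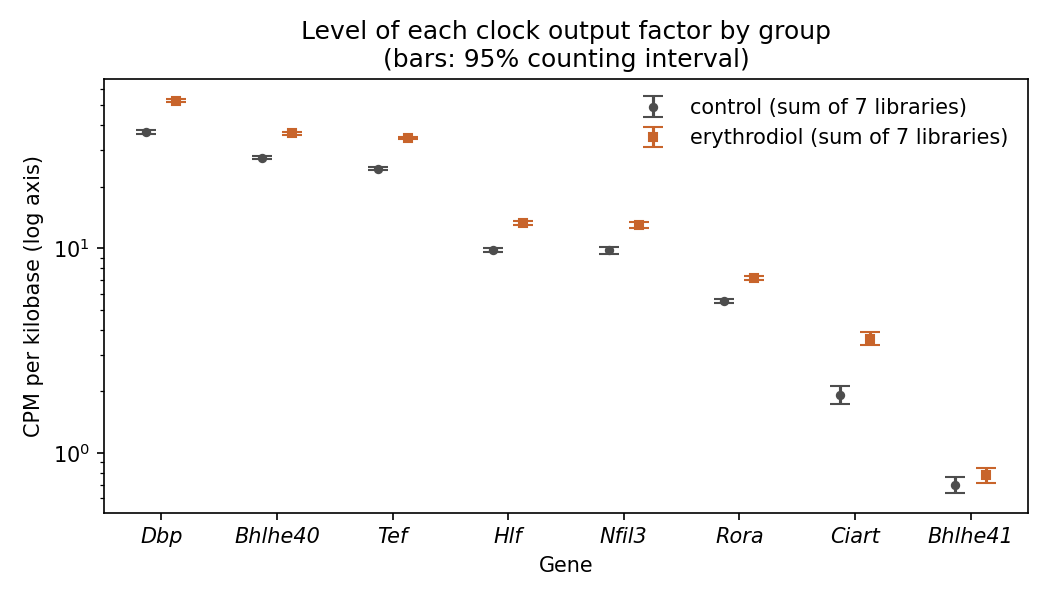
Level of each clock output factor in CPM per kilobase of transcript (log axis) in the control (circles) and erythrodiol (squares) group, each the sum of 7 libraries, with 95% counting intervals. Both groups have the same order from Dbp to Bhlhe41, and the intervals of the groups overlap in Bhlhe41 alone.

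Dbp, the member of the PAR bZIP family with the strongest daily rhythm in liver, lies on chromosome 7 (chr7:45705100-45710203 of GRCm38.p6, NCBI gene 13170). It had 7353 counts in the control and 10582 in the erythrodiol group, and its level per length was the highest of the 8, at 37.1 and 52.6 CPM per kilobase. The ratio was 1.42 (95% counting interval 1.38 to 1.46). Its log2 ratio, 0.50, was above that of 94.9% of all genes and of 97.2% of genes of like length, and 0.44 above the median of the latter. The 741 bases of the Dbp gene with the highest coordinates overlap Sphk2, a sphingosine kinase gene with 6861 and 8057 counts, and the count of Dbp, alone among the 8, was not a whole number. Reads of this stretch may thus be split between both genes, and the counting is not stated to use strand.

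Tef, on chromosome 15 (chr15:81802673-81826863, gene 21685), had the most counts of the factors, with 12604 and 18042. Per length its level was 24.5 in the control and 34.5 CPM per kilobase with erythrodiol, below Dbp and Bhlhe40. The ratio of 1.41 (1.38 to 1.44) was close to that of Dbp, and the ratio of Dbp to Tef went from 1.51 to 1.52, a change of 1.01-fold (0.968 to 1.04). Genes of the length of Tef, 4190 bases, had a median log2 ratio of 0.25, so that Tef was 0.25 above them while Dbp was 0.44 above the shorter genes of its own class. Of the 500 genes nearest in length, 94.8% were lower. The authors' assembly added 2 coding isoforms to Tef, with 3 and 4 exons, from 81811051 and from 81811849 to 81826863. With 10544 and 10232 exonic bases they are longer than the 4190 bases used for its level and its genes of like length. Their first bases lie nearer to the second annotated start, whose window is printed above, than to the first.

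Hlf, the remaining activator of the family, spans 54383 bases of chromosome 11 (chr11:90336535-90390917, gene 217082). The counts were 6198 and 8541, the level per length 9.79 and 13.3 CPM per kilobase, and the ratio 1.36 (1.31 to 1.40). Hlf was 0.17 above genes of like length on the log2 scale and higher than 86.8% of them. The level of Tef over that of Hlf was 2.50 in the control and 2.60 with erythrodiol, a change of 1.04-fold (0.998 to 1.08), and that of Dbp over Hlf changed by 1.04-fold (0.999 to 1.09). The intervals of all 3 proportions among the activators included 1, with bounds no farther from it than 1.09-fold.

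Nfil3, the repressor at D-boxes, lies on chromosome 13 (chr13:52967209-52982878, gene 18030) and had 2606 and 3495 counts. Its level was 9.79 and 12.9 CPM per kilobase. The interval of Nfil3, from 9.41 to 10.2 in the control and from 12.5 to 13.4 with erythrodiol, held the level of Hlf in both groups. The ratio was 1.32 (1.26 to 1.39), with 0.29 on the log2 scale above genes of like length and 91.8% of these lower. The repressor and the 3 activators thus all had intervals above 1. Of all genes, 71.2% had a ratio above 1, with a median log2 ratio of 0.16. The summed level of Dbp, Tef and Hlf was 7.29 times that of Nfil3 in the control and 7.76 times with erythrodiol, a change of 1.06-fold. For Dbp over Nfil3 the change was 1.07-fold (1.01 to 1.14), for Tef 1.07-fold (1.01 to 1.13) and for Hlf 1.03-fold (0.967 to 1.09).

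Ciart, a short gene of chromosome 3 (chr3:95878500-95882257, gene 229599), differed most between the groups. Its 404 counts in the control (366 to 445) stood against 771 with erythrodiol (718 to 827), and its level per length was 1.92 and 3.62 CPM per kilobase. The ratio was 1.88 (1.67 to 2.13), with a log2 ratio of 0.91 that exceeded those of 99.6% of all genes and of the genes of like length. Relative to the latter it was 1.80-fold. The change of Ciart was larger than that of each other factor beyond counting error, from 1.33-fold relative to Dbp, with a lower bound of 1.17, to 1.69-fold relative to Bhlhe41 (1.42 to 2.00). In the assembly, 2 coding isoforms with 5 and 7 exons were added to Ciart, both from 95878500 to 95882242. They hold 3136 and 1512 exonic bases, beside the length of 1709 used here. Added isoforms were present in 2 of the 8 factors, Ciart and Tef, and in 35.8% of all genes with at least 100 counts. The whole Ciart gene lies within a long noncoding RNA gene, C920021L13Rik, which was not listed in the gene table.

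The paired repressors Bhlhe40 and Bhlhe41 lie apart on chromosome 6 and stood far apart in level. Bhlhe40 (chr6:108660629-108666925, gene 20893) had 10568 and 14143 counts, with 27.6 and 36.4 CPM per kilobase, second to Dbp. Its ratio was 1.32 (1.29 to 1.35), 0.22 above genes of like length on the log2 scale and higher than 86.8% of them. Bhlhe41 (chr6:145858243-145865420, gene 79362) had 517 and 585 counts and the lowest level, 0.698 and 0.778 CPM per kilobase. Its ratio of 1.12 had a counting interval from 0.989 to 1.26, which included 1. The log2 ratio of Bhlhe41, 0.16, was close to the median of all genes, also 0.16. It was 0.14 below genes of like length, with a log2 difference of -0.14 and 27.8% of them lower. Ciart, with a similar number of counts, had an interval far above that of Bhlhe41. The level of Bhlhe40 over that of Bhlhe41 went from 39.6 to 46.8, a change of 1.18-fold (1.05 to 1.33).

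Rora, an activator at ROR elements, has the longest transcript and a gene of 734843 bases on chromosome 9 (chr9:68653404-69388246, gene 19883), with 5 noncoding genes inside or across its bounds. The counts were 7227 and 9523, the level per length 5.52 and 7.17 CPM per kilobase, and the ratio 1.30 (1.26 to 1.34). Its log2 ratio of 0.38 was higher than that of 83.5% of all genes but of 57.4% of genes of like length, whose median was 0.35. Relative to these the ratio was 1.02, so that Rora lay within their interquartile range, as did Bhlhe41 alone among the others.

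**Figure D3:**
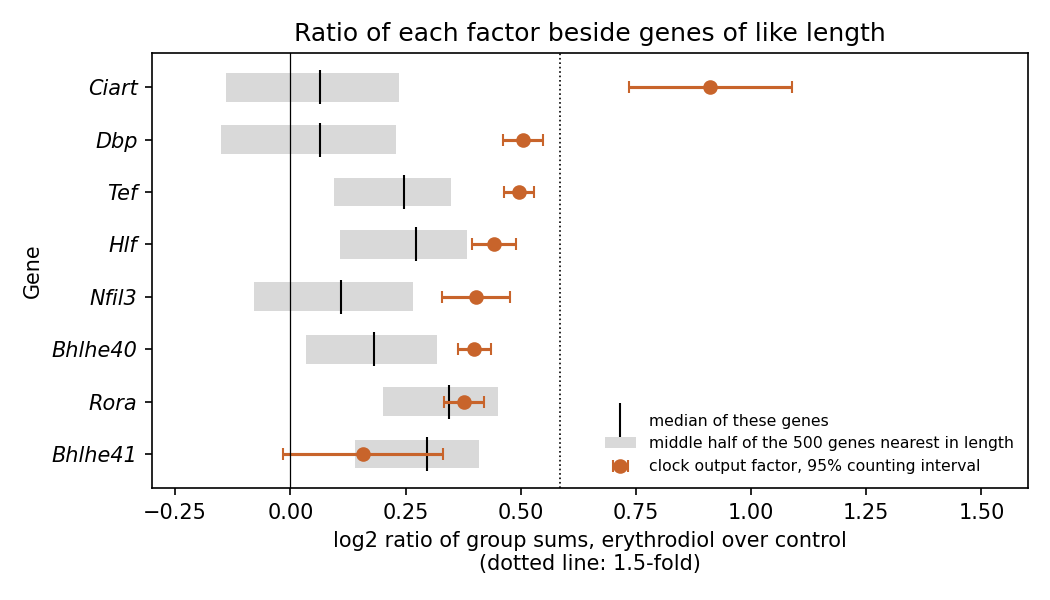
log2 ratio of the group sums, erythrodiol over control, for each clock output factor (points, with 95% counting intervals) beside the median (tick) and the interquartile range (grey bar) of the 500 genes nearest in transcript length. Ciart lies right of the 1.5-fold line, Dbp, Tef, Hlf, Nfil3 and Bhlhe40 lie right of the grey bars, and Rora and Bhlhe41 lie within them.

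The levels ranked in the same order in both groups, Dbp, Bhlhe40, Tef, Hlf, Nfil3, Rora, Ciart and Bhlhe41, and Hlf and Nfil3 were the sole neighbours whose intervals overlapped. Between the highest and the lowest the level differed 53.1-fold in the control and 67.6-fold with erythrodiol. The factors thus covered a wide range, with Dbp above 91.0% and Bhlhe41 above 15.5% of the genes with at least 100 counts in level per length in the erythrodiol group. Ciart, above 29.6% of these genes in the control and 40.7% with erythrodiol, moved farthest of the 8 in that ranking.

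Genes of the core clock were read beside them, in a list of 14 genes, all of which had at least 100 counts. All 14 had ratios above 1, as had 71.2% of all genes. Their log2 ratios had a median of 0.31, the highest at 0.79, and a median of 0.11 relative to genes of like length. Set against the median of all genes, 12 of the 14 were higher. The period genes were the 3 past 1.5-fold upwards, as were 2.55% of all genes, and under each of 3 other scalings Per3 was the 1 that remained past it. Relative to genes of like length, 0 of the 3 were past 1.5-fold. Per3 had 3049 and 5364 counts and a ratio of 1.73 (1.66 to 1.81), Per1 a ratio of 1.59 (1.51 to 1.68) and Per2, named after its value was seen, 1.51 (1.43 to 1.61). Among the lowest ratios was that of Clock, which encodes the partner of BMAL1, at 1.08 (1.05 to 1.12). The ratio of Ciart, 1.88, was above that of each period gene, though its interval overlapped those of Per1 and Per3, whereas those of Dbp, Tef, Hlf and Nfil3 were below all 3, with intervals of Dbp and Tef that overlapped that of Per2.

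Another list held 11 liver genes that the PAR bZIP factors are known to act on or that differ in mice without them, and all had at least 100 counts. Their median log2 ratio was 0.30, with 7 genes above and 4 below a ratio of 1, over a far wider range than that of the factors. Of all genes, 71.2% were above 1, 2.55% were past 1.5-fold upwards and 3.14% downwards. Higher past 1.5-fold were 5 genes, Cyp2b10 with 43.2 and 134 counts and a ratio of 3.06 (2.16 to 4.44), Cyp2a4 with 2.55 (2.48 to 2.62), Cyp7a1 with 2.38 (2.33 to 2.43), Alas1 with 1.61 (1.59 to 1.63) and Por with 1.54 (1.51 to 1.56), of which the last 3 were named after their values were seen. Under each of the 3 other scalings and relative to genes of like length, Alas1 and Por were no longer past 1.5-fold, which left 3 genes. Cyp7a1 is the rate-limiting enzyme of bile acid synthesis, Alas1 that of heme synthesis, and Por passes electrons to the cytochromes P450. Lower past 1.5-fold were Cyp2b13, with 336 and 27.0 counts and a ratio of 0.0793 (0.0514 to 0.117), and Cyp2b9, with 0.250 (0.236 to 0.264). The genes of the Cyp2a, Cyp2b and Cyp2c families are near copies of each other, and their counts may be split between copies. In the study's RT-qPCR on individual mice, Cyp2b10 was significantly higher, by a smaller factor than in the sums, and Cyp2b9 significantly lower. The lower mean of Cyp2b13 was not significant there. For Cyp2b9 and Cyp2b13 the standard deviation between mice exceeded the mean in each group. Genes of this list lay on both sides of a ratio of 1, and the 3 activators had ratios from 1.36 to 1.42. A link between the activators and the ratios of these genes was not tested.

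Of other genes with a daily rhythm in liver, 11 of the 12 symbols of a further list were found, the missing one being an older name of Noct, and all 11 had at least 100 counts. Their median log2 ratio was 0.35, with 8 above and 3 below a ratio of 1. Of all genes, 71.2% were above 1, 2.55% were past 1.5-fold upwards and 3.14% downwards. Past 1.5-fold upwards were Noct, which encodes the phosphatase nocturnin, with 1237 and 3128 counts and a ratio of 2.49 (2.33 to 2.66), the deubiquitinase gene Usp2 with 2.06 (1.93 to 2.20), Lpin1 with 1.61 (1.56 to 1.67) and Tsku with 1.57 (1.52 to 1.61), the last 2 named after their values were seen. Lpin1 and Tsku were not past 1.5-fold under any of the 3 other scalings or relative to genes of like length, which left 2 genes. Insig2, which retains SREBP in the endoplasmic reticulum, was lower, with 0.649 (0.637 to 0.661), followed by Cdkn1a with 0.818 (0.762 to 0.879). Ciart lay between Usp2 and Lpin1 in this order.

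Because several of the factors also respond to feeding and glucocorticoids, 9 genes of that response were read as well. All 9 had ratios above 1, as had 71.2% of all genes, and 7 were above the median of all genes. The median log2 ratio of this list was 0.38, close to that of the factors. Pck1, of gluconeogenesis, was past 1.5-fold with 109728 and 174872 counts and a ratio of 1.57 (1.56 to 1.58), and the coactivator gene Ppargc1a followed with 1.40 (1.29 to 1.51). Under each of the 3 other scalings 0 genes of this list were past 1.5-fold, and Pck1 was 0.50 above genes of like length on the log2 scale, short of 1.5-fold. Srebf1, which encodes a regulator of lipid synthesis induced by feeding, was among the lowest, with 1.10 (1.08 to 1.12). The part of feeding state in the ratios of the factors was not tested.

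**Figure D4:**
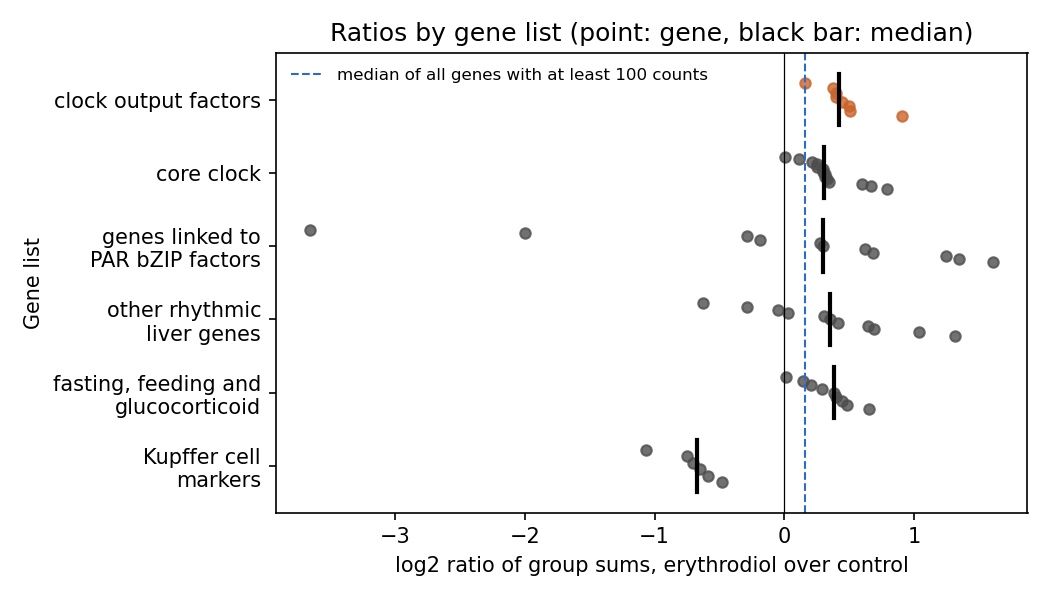
log2 ratio of the group sums, erythrodiol over control, for the genes with at least 100 counts of 6 lists (points), with the median of each list (black bar) and of all genes (dashed line, 0.16). The 8 clock output factors lie between 0.16 and 0.91, the 14 core clock genes are all above 0 and reach 0.79, and the 6 Kupffer cell markers between -1.07 and -0.48.

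Nfil3, Bhlhe40 and Rora are also made by immune cells, and markers of some cell types differed between the groups. All 6 markers of Kupffer cells, the macrophages of the liver, were lower with erythrodiol, 5 of them past 1.5-fold, as were 3.14% of all genes. Their summed level was 869 and 535 CPM. Of 6 neutrophil markers 3 had at least 100 counts, and all 3 were lower, past 1.5-fold, with a summed level of the 6 of 12.6 and 4.72 CPM. Of all genes, 71.2% had a ratio above 1, while markers of bile duct cells were lower in 5 of 5, with 116 and 79.1 CPM. Spp1 alone gave 102 and 67.1 CPM of these sums. The intervals of the ratios of Krt7 (0.649 to 1.02) and Sox9 (0.859 to 1.03) included 1. Lymphocyte markers summed to 8.09 and 8.22 CPM, endothelial markers to 178 and 183, stellate cell markers to 525 and 498, and 5 erythroid markers to 1264 and 929. The liver itself was marked by 7 hepatocyte genes with 102727 and 101940 CPM, led by Alb, and a median log2 ratio of 0.16, equal to that of all genes. No marker of these lists was at 0 in a group. Markers of Kupffer cells, neutrophils and bile duct cells were thus lower, as were 4 of the 5 erythroid markers, 2 of these past 1.5-fold. The part of cell makeup in the ratios of the factors was not tested. In pooled liver RNA, fewer cells of a type and less RNA per cell cannot be told apart.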

How the data were processed

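Total liver RNA pools were sequenced by the authors on the BGISEQ-500 platform in paired-end reads of 100 bases. The authors deposited, per library, counts of clean reads and the percent mapped to genes. Per gene the authors deposited 1 expected count for each group, made with Bowtie2 and RSEM on reference transcripts joined with assembled coding transcripts (HISAT, StringTie, Cufflinks), summed over 7 libraries and not normalized. Versions were not given in the sources used here. The deposited table also holds the authors' own log2 ratios, p-values, q-values and calls, which were not used.

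Ratios were computed from the group sums scaled by column totals, without pseudocount. Counts were rounded for exact conditional binomial and Poisson intervals (95%). Changes of one gene relative to another have normal intervals on the log scale. A gene was called past 1.5-fold, with no test, since each group has 1 value. Medians used genes with at least 100 counts in both groups together and above 0 in each, and like length means the 500 such genes nearest in length. Levels are counts per 1000000 counts of the group (CPM), divided by transcript length in kilobases between genes. The 8 genes and the lists were chosen with earlier results of these data known. All 8 are named, and from each other list up to 2 genes of the highest and of the lowest ratio. Some genes that this rule names are not reported here. A planned comparison of proteins was not made, since no protein sequence was used here. Promoter windows and gene bounds are those of RefSeq on GRCm38.p6. The added transcripts are on GRCm38 by their chromosome identifiers.

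Calculations were tested on simulated data. Scripts ran under Python 3.11.15 with scipy 1.17.1, numpy 2.4.6 and pandas 2.3.3, and plots were drawn with matplotlib 3.10.9. Alternatives were 3 other scalings, a pseudocount of 1, a 2-fold limit, other minimum counts (10 and 1000), 200 nearest genes and genes within 10% of the length. Leaving out Dbp was added after seeing the data.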

Additional observations from a re-analysis of the deposited data

Results flagged for a closer look

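The share of clean reads mapped to genes was 64.33% in control replicate 3, apart from the other control libraries, which ran from 74.39% to 81.43%. The gap to the nearest was 0.588 of the range of the 7 libraries. It was the only one so far apart in 6 sets of 7 libraries, of which 5% are so marked by chance. This library is part of the control sum of every clock output factor.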

How the results depend on the processing

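The median log2 ratio of the 8 factors, 0.42 by total counts, was 0.26 when scaled by the median ratio of all genes, 0.25 by the upper quartile, 0.31 by the total without the 100 most abundant genes and 0.23 relative to genes of like length. The 3 scalings shifted the median log2 ratio of all genes by -0.16, -0.18 and -0.11. With each of them Ciart stayed the 1 factor past 1.5-fold, between 0.74 and 0.80 on the log2 scale, and with a 2-fold limit 0 factors were past it, as against 0.767% of all genes. Bhlhe41 turned from 0.16 to -0.00 by the median ratio and -0.02 by the upper quartile, while the other 7 factors were above 0 in all 3. Of the 14 core clock genes 12, 12 and 13 stayed above 0, with Per3 the 1 past 1.5-fold in each. Without Dbp the median was 0.40. No paired analysis was possible because the gene table holds 1 sum per group, and for the same reason no library could be left out. Differences between mice and pools are unknown for every gene.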

Other observations

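In the authors' annotation 82 genes of the table carry the term circadian rhythm, 5 of them clock output factors (Dbp, Nfil3, Bhlhe40, Bhlhe41 and Rora). Of the other genes 62 had at least 100 counts, with a median log2 ratio of 0.25, against 0.16 over all genes. They may include genes of the lists above, and are given by total counts only. In this group 57 had a ratio above 1, 4 were past 1.5-fold upwards and 1 downwards, where 71.2% of all genes had a ratio above 1, 2.55% were past 1.5-fold upwards and 3.14% downwards. This set was looked at after the values of the factors were seen.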
